A study of Mus musculus with 2 samples.

Results

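The genes described here are 10 secreted antagonists of Wnt signalling, chosen by name for what their proteins are known to do: Wif1, Sfrp1, Sfrp2, Sfrp4, Frzb, Dkk1, Dkk2, Dkk3, Sost and Notum. They are 10 of the 28380 genes with counts in 2 single-cell RNA sequencing (scRNA-seq) libraries made from the non-haematopoietic cells of mouse thigh and shin bone (femur, tibia), and all 10 were counted in both. The mice were C57BL/6 at postnatal day 30 and all received tamoxifen. Control mice carried the Dach1OE +/f allele according to their label, and Dach1OE mice carried Apj CreERT2 together with Dach1OE +/f, so that Dach1 was switched on by a Cre whose promoter is active in Aplnr-expressing (Apj-expressing) capillary endothelium. There was 1 library per group and no replicate library, so no test was possible. Each library pooled a pair of mice, male and female.

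Wnt proteins are lipid-carrying secreted ligands that bind Frizzled receptors together with the co-receptors LRP5 or LRP6, and in bone this signal drives the formation and activity of osteoblasts. Secreted antagonists act at separate points outside the cell. WIF1, the secreted Frizzled-related proteins and FRZB bind the Wnt ligand itself, DKK1 and sclerostin (encoded by Sost) occupy the co-receptors, and NOTUM removes the lipid from the ligand. Sclerostin is known as a product of osteocytes, the cells buried in the mineralised matrix, and is the target of an antibody used to treat osteoporosis.

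The Control library held 28720 cells and the Dach1OE library 32028 cells, with 143986818 and 166999989 UMIs (unique molecular identifiers, each standing for 1 captured transcript). Filters kept 26466 and 29317 cells, with medians of 3793.5 and 4055 UMIs. The libraries had 1049 cell indices in common, and the results were also computed without those cells. Dach1 was at 4.99 CPM (counts scaled to 1e6) in Control endothelial cells (ECs) and at 205 CPM in Dach1OE ECs. Clusters were named by marker genes, so a name means cells like that type. Bone mesenchymal stromal cells (BMSCs) fell into diaphyseal (dpMSC), metaphyseal (mpMSC), osteoblast (OB), osteocyte (OCY), septoclast-like (SC) and proliferating (pBMSC) cells, and the other classes were chondrocytes, fibroblasts, mural cells, ECs and haematopoietic cells. The class named SC takes its name from its list (Mmp9, Sstr2, Col18a1, Fabp5, Ctsb and Cd55). In dpMSC, mpMSC, OB, OCY, SC, chondrocyte, fibroblast, mural and EC classes no marker of the class's own list was at 0 in either library. A level in CPM below is the UMIs of a gene summed over the cells of a class, scaled to 1e6 UMIs of that class. Levels were compared between classes for 1 gene at a time. All intervals cover counting error only, at 95%.

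The members lie on separate stretches of the mouse genome (GRCm38), with no cluster of neighbours among them. Wif1 is at chromosome 10, 121033960 to 121100650, and Dkk1 is at chromosome 19, 30545863 to 30549665. Sost lies on chromosome 11 from 101962458 to 101967015, and Notum on the same chromosome from 120653788 to 120661175. Sfrp1 is at chromosome 8, 23411502 to 23449632, Sfrp4 at chromosome 13, 19623104 to 19632994, and Frzb at chromosome 2, 80411970 to 80447625. Dkk2 and Sfrp2 are both on chromosome 3, at 132085292 to 132180304 and 83766321 to 83774316, and Dkk3 is at chromosome 7, 112116017 to 112159057. Antisense genes on the opposite strand reach exons of Notum (Myadml2os and Notumos) and of Sfrp2 (Gm26771). Whether the counting used strand is not given in the sources used here, so the values of Notum and Sfrp2 can include antisense reads.

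Upstream sequence is shown for Wif1, Dkk1 and Sost, the members that were highest in metaphyseal stroma or osteocytes, so that the DNA before their starts can be set side by side. The stretches are from RefSeq on GRCm38.p6, run 5′ to 3′ along the gene's strand and stop before the annotated transcript start. The capitals mark a match to a searched motif. Wif1 is chr10:121033754-121033959 on the plus strand, Dkk1 is chr19:30549666-30549746 on the minus strand, and Sost is chr11:101967016-101967265 on the minus strand.
Wif1: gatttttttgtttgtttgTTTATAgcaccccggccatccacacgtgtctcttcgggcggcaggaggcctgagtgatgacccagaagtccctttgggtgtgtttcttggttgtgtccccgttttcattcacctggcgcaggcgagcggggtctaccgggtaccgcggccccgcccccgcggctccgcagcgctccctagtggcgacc
Dkk1: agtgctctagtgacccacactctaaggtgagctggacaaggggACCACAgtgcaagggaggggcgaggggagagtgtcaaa
Sost: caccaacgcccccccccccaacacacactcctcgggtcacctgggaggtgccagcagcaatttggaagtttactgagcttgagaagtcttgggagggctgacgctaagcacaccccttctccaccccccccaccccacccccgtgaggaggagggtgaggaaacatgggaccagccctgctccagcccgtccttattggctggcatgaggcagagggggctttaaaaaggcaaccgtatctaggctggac
Both strands of the 250 bases before each RefSeq start were searched for CTTTGNT (the letters bound by TCF and LEF factors, which carry out canonical Wnt signalling), TGTGGT (bound by RUNX factors, which include the osteoblast regulator RUNX2) and TATAAA. Of 32851 mouse promoters, 16.0% held the TCF/LEF letters, 14.0% the RUNX letters and 12.4% the TATA letters. The Dkk1 window held all 3, and its RUNX match lies on the opposite strand and is therefore printed as its reverse. Its other 2 matches, TCF/LEF and TATA, lie in the 169 bases that the gene annotation places inside Dkk1 and that are not printed. The Wif1 match is TATAAA read on the opposite strand, far from the start. None of the searched letters occurred in the windows of Sost, Sfrp2 and Frzb, and the Dkk2 window held TATAAA at −32 to −27 from its start. A promoter sequence was found for 6 members and not for the other 4, which were Dkk3, Notum, Sfrp1 and Sfrp4. These matches are descriptions of letters and not of binding.

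The antagonists divided the skeletal cells between them, with each gene concentrated in a few classes. Wif1 was highest in mpMSCs, Sfrp1 and Sfrp2 in dpMSCs, Sfrp4 and Dkk3 in dpMSCs and fibroblasts, Frzb in chondrocytes, and Dkk1 and Sost in osteocytes. Dkk2 was found in fibroblasts and in a small set of ECs, and Notum was spread over proliferating BMSCs, osteoblasts, mpMSCs and chondrocytes. The highest class was the same in both libraries for each member except Sfrp4.

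**Figure D1:**
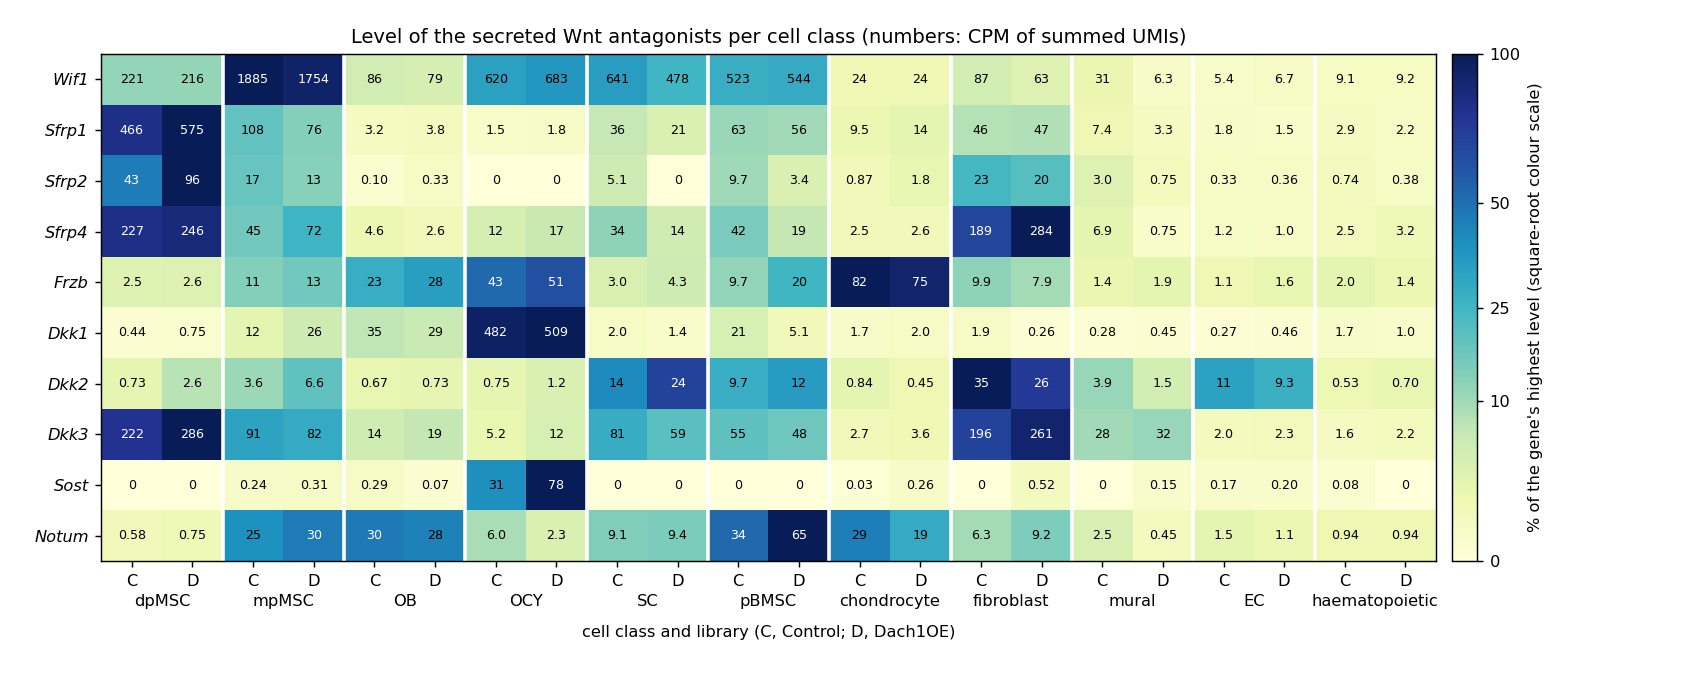
Grid of the level of each member (1 line per gene) in 11 cell classes of the Control (C) and Dach1OE (D) libraries. The printed number is CPM of the class total, and the colour is the percent of the gene's own highest level on a square-root scale. Wif1 is darkest in mpMSCs, at 1885 CPM in Control and 1754 CPM in Dach1OE, and Sost in osteocytes, at 30.7 and 78.2 CPM.

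Wif1, which encodes a protein that binds Wnt ligands through its WIF domain, was at 1885 CPM in Control and 1754 CPM in Dach1OE mpMSCs. That was 2.94 times the level in the next class in Control (SC, 641 CPM) and 2.57 times that in Dach1OE (OCY, 683 CPM). SC and OCY did not differ beyond counting error in Control (641 and 620 CPM), and neither did pBMSC and SC in Dach1OE (544 and 478 CPM). Wif1 was lower in dpMSCs, at 221 and 216 CPM, and lower again in osteoblasts, at 85.9 and 79.3 CPM. The mpMSCs held 56.5% of the Wif1 UMIs of the named Control cells and 48.9% of those of Dach1OE cells. After each cell had been thinned to 1000 UMIs, a Wif1 UMI was found in 68.3% of Control and 67.5% of Dach1OE mpMSCs, leaving out 14 and 17 shallower cells. Without thinning the shares were 86.6% and 82.97%, at medians of 3162 and 3062.5 UMIs. The thinned share in haematopoietic cells, which should lack the gene, was 0.638% and 0.813%, at medians of 4892.5 and 4782 UMIs.

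Among finer clusters, which were looked at after the class values were known, a cluster led by Col8a1, Kcnk2 and Gdf10 had the highest Wif1 level, at 2297 and 1943 CPM. It took in 222 cells of the mpMSC class, 88 dpMSCs and 22 SC. By its own markers this cluster was named dpMSC, although most of its cells belonged to the mpMSC class. The mpMSC clusters led by Spp1, Postn and Mmp13 and by Aspn, Col3a1 and Tnn were close to each other, at 1768 and 1656 CPM in Control and at 1776 and 1491 CPM in Dach1OE. A shallow cluster of 190 dpMSCs and 91 mpMSCs, with a median of 1316 UMIs and Malat1, Csmd1 and the cartilage collagens Col9a1 and Col9a3 among its leading genes, was at 578 and 651 CPM. Its markers also named it dpMSC. Among the large clusters made up almost wholly of dpMSCs, Wif1 was at 290 and 252 CPM in the one with Adipoq and Esm1. It was at 61.6 and 51.2 CPM in the one with Cbln1, Fmo2 and Prelp. Within osteoblasts the cluster led by Panx3, Fkbp11 and Notum had the highest level, at 190 and 170 CPM. Wif1 was thus uneven inside the named classes, and these clusters stood in the same order in both libraries. In chondrocytes, where the class level was 23.6 and 23.9 CPM, the cluster led by Col3a1, Scara3 and Sfrp5 was at 239 and 206 CPM.

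The secreted Frizzled-related proteins carry a cysteine-rich domain like that of the Frizzled receptors and bind Wnt ligands with it. Sfrp1 was at 466 CPM in Control and 575 CPM in Dach1OE dpMSCs, which was 4.31 and 7.53 times the level in mpMSCs, the next class. The order below mpMSCs (108 and 76.3 CPM) was pBMSC (62.9 and 56.3 CPM) and fibroblast (45.7 and 47.4 CPM), with mpMSC and pBMSC not separated beyond counting error in Dach1OE and pBMSC and fibroblast in neither library. Of the thinned dpMSCs, 31.1% in Control and 34.5% in Dach1OE had a Sfrp1 UMI (53.7% and 57.6% without thinning), against 0.230% and 0.198% of haematopoietic cells. The dpMSC medians were 2678 and 2698.5 UMIs, and 39 and 19 shallower cells were left out.

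Sfrp2 followed the same classes with fewer UMIs. It was at 43.2 and 95.6 CPM in dpMSCs (297 and 256 UMIs), at 23.1 and 19.7 CPM in fibroblasts, and at 16.7 and 12.5 CPM in mpMSCs. No Sfrp2 UMI was found in 188 Control and 251 Dach1OE osteocytes. Sfrp4, for which loss-of-function mutations are known to cause a bone dysplasia with thin cortical bone, had 2 main sites of like level. In Control it was at 227 CPM in dpMSCs and 189 CPM in fibroblasts, and in Dach1OE at 246 CPM in dpMSCs and 284 CPM in fibroblasts. Fibroblasts were therefore the second class in Control and the first in Dach1OE, beyond counting error in both. The Sfrp4 level in fibroblasts came from the cluster with Prg4, Clec3b and Dpt, at 276 and 361 CPM, whereas the cluster with Thbs4 and Tnmd, genes of tendon, was at 17.4 and 2.42 CPM. The first held 652 Control and 683 Dach1OE cells and the second 324 and 179, so the fibroblast class differed in its mix. The level of the first cluster was above that of the dpMSC class as a whole in both libraries. The dpMSC cluster with Cbln1, Fmo2 and Prelp was at 319 CPM in Control, above that fibroblast cluster, and at 356 CPM in Dach1OE.

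Frzb, also called Sfrp3 and known from cartilage, was at 82.1 CPM in Control and 75.0 CPM in Dach1OE chondrocytes, and 85.8% and 84.0% of its UMIs were there. Osteocytes came next, at 42.7 and 51.4 CPM, and then osteoblasts, at 23.0 and 27.8 CPM. Each of these steps was beyond counting error. Among chondrocytes Frzb was highest in the cluster led by Mmp13 and Spp1, which also had Col10a1, the collagen of hypertrophic cartilage, among its leading genes, at 394 and 392 CPM. The thinned share of chondrocytes with a Frzb UMI was 6.19% and 6.05% (31.4% and 27.9% without thinning, at medians of 10344 and 9677.5 UMIs), against 0.179% and 0.198% of haematopoietic cells.

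Dkk1, whose protein binds LRP5 and LRP6 and keeps them from the Wnt ligand, was an osteocyte gene in these cells. It was at 482 CPM in 188 Control osteocytes and at 509 CPM in 251 Dach1OE osteocytes, 13.7 and 17.5 times the level in osteoblasts (35.2 and 29.1 CPM). Because osteoblasts were more numerous, they still held 30.7% and 28.3% of the Dkk1 UMIs, and osteocytes held 53.4% and 56.5%. After thinning, 31.9% and 35.1% of osteocytes had a Dkk1 UMI (72.9% and 77.3% without thinning, at medians of 6839.5 and 6773 UMIs), and no osteocyte was too shallow. The thinned share was 0.0255% and 0.0879% in haematopoietic cells.

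Sost, the sclerostin gene, was found mainly in osteocytes. Its osteocyte level was 30.7 CPM in Control (41 UMIs) and 78.2 CPM in Dach1OE (134 UMIs), and osteocytes held 77.4% and 84.8% of its UMIs. No Sost UMI was found in dpMSCs, which allows at most 0.436 CPM in Control and 1.12 CPM in Dach1OE, and none was found in SC or pBMSC. Only 18 of 188 Control osteocytes and 34 of 251 Dach1OE osteocytes had a Sost UMI (9.57% and 13.5%), and after thinning the shares were 2.66% and 5.58%. The most Sost UMIs in a cell were 11 in Control and 21 in Dach1OE. Osteocytes with a Sost UMI had higher levels of Dkk1 and Wif1 than osteocytes without one, and Frzb was not compared in this way. Dkk1 was at 936 CPM in the 18 Control cells and at 439 CPM in the other 170, and at 868 and 459 CPM in the corresponding Dach1OE cells. Wif1 was at 1133 against 570 CPM in Control and at 1418 against 582 CPM in Dach1OE. The cells with Sost had medians of 5383.5 and 6156 UMIs, and those without had 6964 and 6829 UMIs. By their own markers 254 cells of the class were gated as osteocytes and 124 as osteoblasts, and the part of either in these values was not tested. The split was made on the data and has no replicate.

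Dkk2, a relative of Dkk1 that also binds the LRP co-receptors, was sparse. It was at 34.5 CPM in Control and 25.7 CPM in Dach1OE fibroblasts, and at 14.2 and 23.9 CPM in SC, and these classes did not differ beyond counting error in Dach1OE. In fibroblasts it was at 44.7 and 30.8 CPM in the cluster with Prg4, Clec3b and Dpt. ECs held 55.7% of the Dkk2 UMIs in Control and 55.2% in Dach1OE, although their level as a class was 11.2 and 9.27 CPM. These UMIs came mainly from 1 set of ECs (438 cells in Control, 1382 in Dach1OE) whose leading genes were Sema3g and also Gja5 and Gja4, which encode connexins of arterial endothelium. It held 268 of the 334 Dkk2 UMIs of Control ECs and 218 of the 285 of Dach1OE ECs. This cluster was singled out after its values were seen.

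Dkk3 is the atypical member of the Dickkopf family, whose protein is not known to block LRP co-receptors as DKK1 does. It was at 222 CPM in dpMSCs and 196 CPM in fibroblasts of Control, and at 286 and 261 CPM in Dach1OE. The classes differed beyond counting error in Control and not in Dach1OE, and mpMSCs followed at 91.2 and 82.0 CPM. In Dach1OE fibroblasts Dkk3 was at 255 CPM in the cluster with Prg4 and Dpt and at 281 CPM in the cluster with Thbs4 and Tnmd, whereas in Control these were at 229 and 128 CPM. Notum, which encodes the extracellular carboxylesterase that removes the palmitoleate from Wnt proteins, had no single main class. In Control it was at 33.9 CPM in pBMSC (21 UMIs), 30.1 CPM in osteoblasts, 29.1 CPM in chondrocytes and 25.2 CPM in mpMSCs, with no step between neighbours beyond counting error. In Dach1OE it was at 64.8 CPM in pBMSC (38 UMIs), 29.7 CPM in mpMSCs, 28.3 CPM in osteoblasts and 18.8 CPM in chondrocytes. Chondrocytes held 65.4% and 57.9% of its UMIs, and the Panx3 cluster of osteoblasts, at 73.0 and 58.6 CPM, was above the osteoblast class as a whole.

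**Figure D2:**
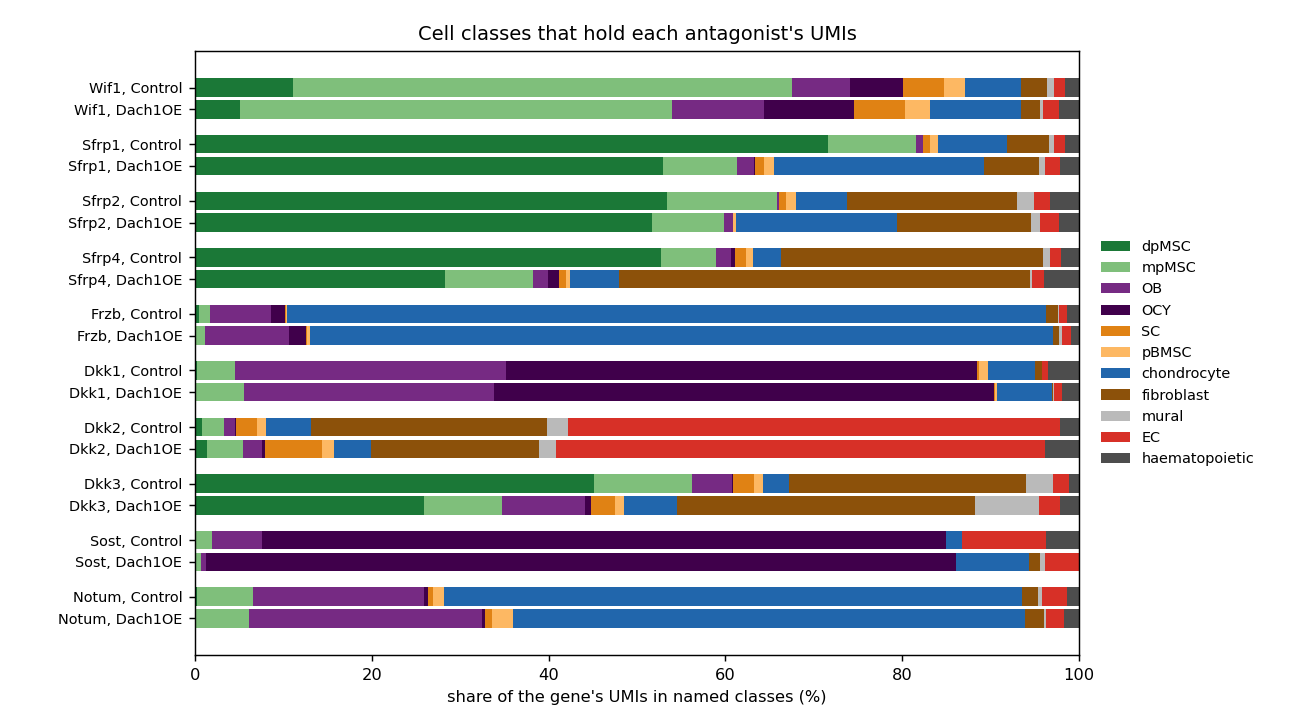
Share (percent) of each member's UMIs that came from each of the 11 named cell classes, with 1 stacked bar per gene and library. Osteocytes held 77.4% of the Sost UMIs in Control and 84.8% in Dach1OE, and the dpMSC share of Sfrp1 was 71.6% in Control and 52.9% in Dach1OE.

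The genes whose pattern over classes was most like a member's were described by Pearson's r of log2(CPM + 10) over 22 points, the 11 classes of both libraries, among 15163 genes. Points of 1 library share its depth, and the r values are descriptions. Nearest to Wif1 were Syt6 (r = 0.944), Slitrk6 (0.936) and Dnm3os (0.935), and nearest to Dkk1 were Ccdc194, 1700010H22Rik and the osteocyte matrix gene Dmp1 (0.963). Sost was followed by Coro6, Ctsw and Art1, and Frzb by the cartilage collagens Col11a1 and Col11a2 after Loxl4. Sfrp1 was nearest to C4b, Eda and Cxcl14, and Sfrp2 to Rspo2, Eya1 and Msc. Sfrp4 was nearest to Abi3bp, Dkk3 and Plekhf1, and Dkk3 to Plekhf1, Abca9 and Abca8a. Dkk2 was followed by Uchl1, Ntn1 and Gem, and Notum by Arhgef19, Omd and Tmem42. Among the members themselves, Dkk3 and Sfrp4 had r = 0.919, and Dkk1 and Sost had r = 0.886.

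Within a cell, antagonists were met together mainly in dpMSCs, mpMSCs and osteocytes. Of thinned dpMSCs, 21.1% in Control and 26.6% in Dach1OE had UMIs of 2 or more members, and the shares were 16.5% and 18.3% in mpMSCs and 21.3% and 23.9% in osteocytes. In osteoblasts, by contrast, 1.27% and 1.36% of cells had UMIs of 2 or more, and 83.8% and 82.4% had none. Osteoblasts were thus the BMSC subtype with the fewest different members found per thinned cell, with a mean of 0.175 and 0.190.

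The comparison of Dach1OE with Control asks how stromal cells differ when Dach1 is switched on in neighbouring capillary ECs. Within most classes the members that were abundant differed little between the libraries. Wif1 in mpMSCs, Sfrp1 and Sfrp4 in dpMSCs, Dkk1 and Wif1 in osteocytes and Frzb in chondrocytes were within 1.5-fold over all cells of the class. In the BMSC subtypes the members past 1.5-fold were Sfrp2 in dpMSCs, Dkk1 and Sfrp4 in mpMSCs, Sost in osteocytes and Notum in pBMSC, which were higher in Dach1OE, and Sfrp4 in osteoblasts and Sfrp1 and Sfrp4 in SC, which were lower. In chondrocytes Notum was lower, and Sfrp2 and Dkk2 were past 1.5-fold at low class levels. The class levels of Sfrp2 in Control and Dkk2 in Dach1OE chondrocytes were near the background of haematopoietic cells, as was Sfrp4 in Dach1OE osteoblasts. Log2 ratios below are Dach1OE over Control, relative to the median gene of the class with at least 50 UMIs over both libraries, and a member counts as past 1.5-fold on this scale.

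**Figure D3:**
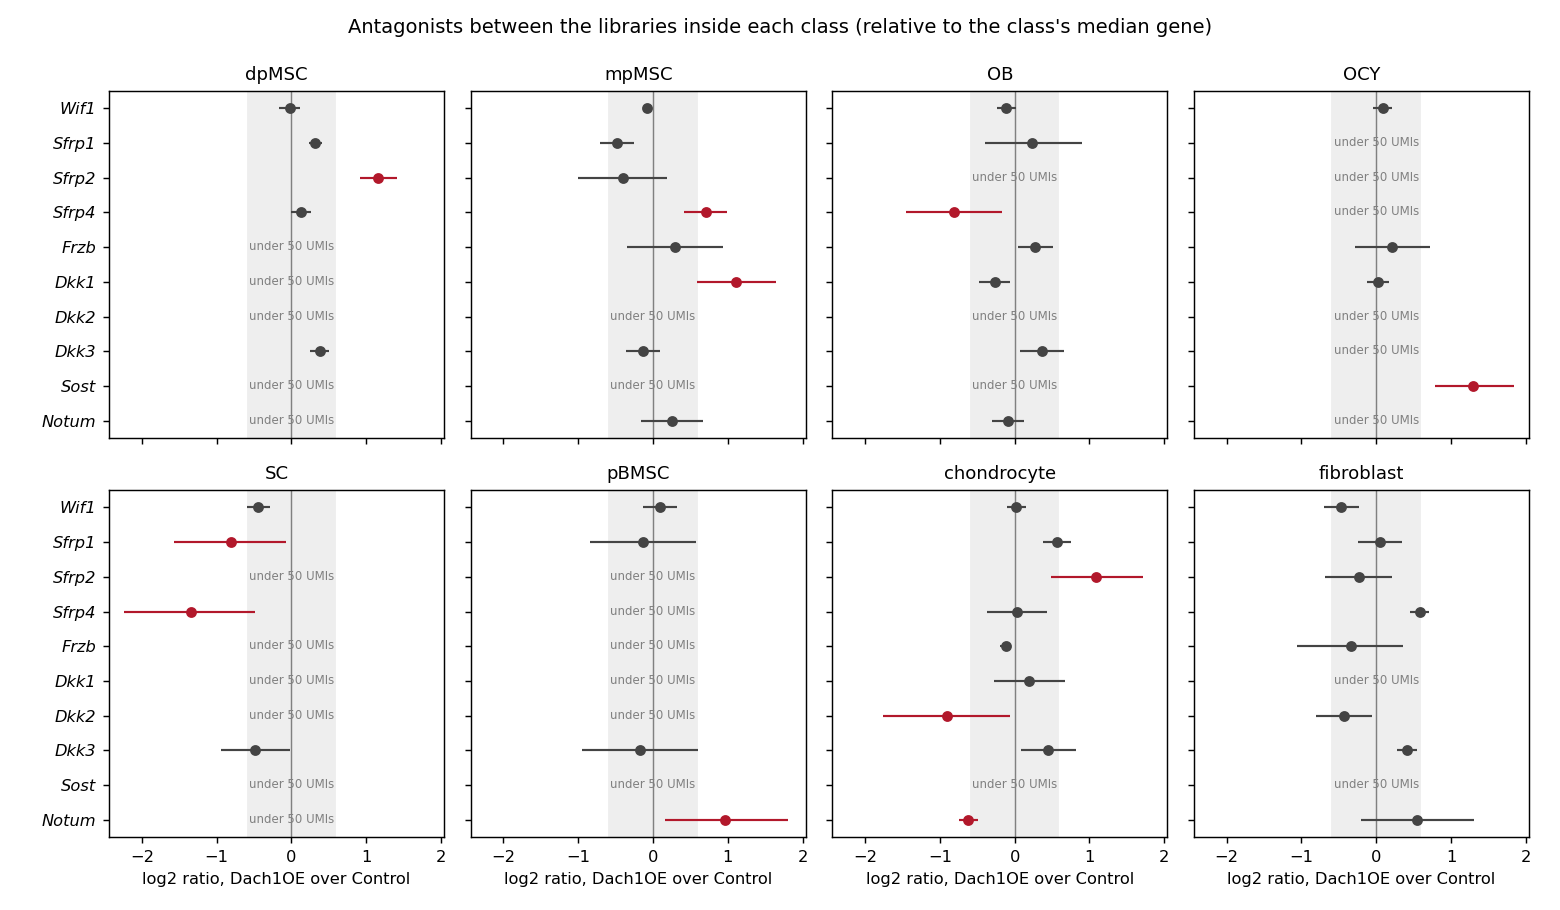
Log2 ratio of CPM (Dach1OE over Control, relative to the class's median gene) of each member with at least 50 UMIs, with 1 panel per class and bars for the 95% counting interval. The grey band marks 1.5-fold and points past it are red. Most points lie in the band, and Sost in osteocytes (1.29) and Sfrp4 in SC (−1.34) are among those outside.

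In dpMSCs, 1 of the 5 members measured with at least 50 UMIs was past 1.5-fold, and so were 5.3% of all genes. Sfrp2 was at 43.2 CPM in Control and 95.6 CPM in Dach1OE, a log2 ratio of 1.16 (interval 0.91 to 1.41). The difference was larger in cells with Xist, the transcript of the inactive X chromosome, which stand for 1 mouse per library, at 43.7 and 113 CPM. In cells with Y-linked UMIs, which stand for the other mouse, Sfrp2 was at 50.7 and 59.8 CPM, a log2 ratio of 0.26, so that mouse and sex cannot be told apart here. Sfrp1, Dkk3 and Sfrp4 were at log2 ratios of 0.32, 0.38 and 0.13, and Wif1 was at −0.02. In cells with Xist, Sfrp1 (408 and 617 CPM, 0.62) and Sfrp4 (174 and 259 CPM, 0.59) were also past 1.5-fold, whereas their ratios in cells with Y-linked UMIs were 0.14 and −0.15. The median of these 5 members was 0.32, where the median of all genes is 0 by construction. The medians of the members measured in the other classes were 0.088 in mpMSCs, −0.088 in osteoblasts, 0.15 in osteocytes, −0.65 in SC, −0.022 in pBMSC, 0.026 in chondrocytes and −0.092 in fibroblasts, and 0.20 over all BMSCs. Chondrocyte markers in dpMSCs summed to 1382 CPM in Control and 1981 CPM in Dach1OE, with 1 of 9 past 1.5-fold and none at 0. Of 5 measured SC markers 2 were higher, with the list at 1185 and 1100 CPM, and 1 of 4 erythroid markers was lower. The part of these lists in the result was not tested.

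The dpMSC difference was uneven between finer clusters. In the cluster with Cbln1, Fmo2 and Prelp, Sfrp1 was at 370 CPM in Control and 679 CPM in Dach1OE (log2 ratio 0.92), and Dkk3 at 266 and 400 CPM (0.64). In the cluster with Adipoq and Esm1, Sfrp1 was at 539 and 521 CPM (−0.04), and Dkk3 at 199 and 221 CPM (0.16). Sfrp2 was higher in Dach1OE in both, at 36.0 and 99.6 CPM in the first and 48.1 and 112 CPM in the second. These clusters held 1069 and 1139 Control cells and 394 and 396 Dach1OE cells, all of them dpMSCs except 2 mpMSCs.

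In mpMSCs, 2 of 8 members were past 1.5-fold, both higher in Dach1OE, beside 4.81% of all genes. Dkk1 was at 12.4 CPM in Control (51 UMIs) and 26.3 CPM in Dach1OE (84 UMIs), a log2 ratio of 1.108 (interval 0.59 to 1.64). It was higher in cells with Xist (8.40 and 25.4 CPM) and in cells with Y-linked UMIs (13.7 and 22.7 CPM). In the finer cluster with Spp1, Postn and Mmp13, whose cells were mostly but not all mpMSCs, Dkk1 was at 20.2 and 41.1 CPM (45 and 86 UMIs). Sfrp4 was at 45.1 and 72.3 CPM, a log2 ratio of 0.70 (0.42 to 0.99). For Sfrp4 the cells with Xist were at 42.0 and 106 CPM, and those with Y-linked UMIs at 53.4 and 60.7 CPM, a log2 ratio of 0.21. Sfrp1 was within the threshold, at 108 and 76.3 CPM (−0.48), and past it in cells with Xist (97.8 and 61.1 CPM, −0.66). Wif1, the main member of this class, had a log2 ratio of −0.08 (interval −0.13 to −0.03). Beside these values, 3 of 8 measured dpMSC markers were lower in Dach1OE mpMSCs, with the list summing to 6269 and 4581 CPM, and 3 of 4 measured erythroid markers were lower, with sums of 193 and 31.0 CPM. By their own markers 754 cells of the class were gated as mpMSCs, 210 as dpMSCs, 198 as osteoblasts and 77 as SC, and 799 were ungated. The part of these cells and of the marker lists in the result was not tested.

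In osteoblasts, 1 of 7 members was past 1.5-fold, beside 4.36% of all genes. This was Sfrp4, at 4.56 CPM in Control and 2.60 CPM in Dach1OE (48 and 39 UMIs), with a log2 ratio of −0.81 (interval −1.46 to −0.17). Haematopoietic cells, which should lack the gene, were at 2.46 and 3.24 CPM, so that the Dach1OE level in osteoblasts was at background. Among cells with Xist the ratio was −0.21. Wif1, Dkk1 and Notum had log2 ratios of −0.11, −0.27 and −0.09, and Frzb and Dkk3 of 0.28 and 0.36. Some were uneven between the finer osteoblast clusters led by Bglap2, by Panx3 and by Prss35. In that order, Dkk1 was at −0.64, −0.12 and 0.07, Dkk3 at 0.19, 0.99 and −0.003, and Notum at −0.0002, −0.31 and 0.72. The dpMSC marker list in osteoblasts summed to 108 and 65.3 CPM, with 3 of 6 measured markers lower. Mural markers summed to 23.8 and 42.4 CPM, with 3 of 5 higher. Of the SC markers 2 of 5 were higher, although the SC list summed lower, to 292 and 267 CPM. The part of these lists in the Sfrp4 value was not tested.

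In osteocytes, 1 of 4 members was past 1.5-fold, beside 8.51% of all genes. Sost was at 30.7 CPM in Control and 78.2 CPM in Dach1OE, a log2 ratio of 1.29 (interval 0.78 to 1.84). In cells with Xist it was at 42.0 and 48.4 CPM (22 and 28 UMIs), and in cells with Y-linked UMIs at 23.7 and 63.9 CPM (7 and 31 UMIs). The Xist value, a log2 ratio of 0.13, was far below the value over all cells. The other Sost UMIs came from cells not assigned to a sex. Wif1 and Dkk1 had log2 ratios of 0.09 and 0.02, with intervals of −0.04 to 0.22 and −0.13 to 0.17, and Frzb was at 0.21. EC markers in the osteocyte class summed to 138 and 205 CPM, with 4 of 6 measured markers higher and 1 lower, and chondrocyte markers to 952 and 1100 CPM, with 4 of 8 higher. In the osteocyte cluster of the finer clustering Sost was at 31.4 and 68.5 CPM (41 and 113 UMIs), a log2 ratio of 1.08. That cluster held 423 cells of the osteocyte class. Another 15 lay in a finer cluster with EC markers, in which 50.8% of cells were marked as doublets. The part of these cells and of the marker lists in the Sost value was not tested.

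In SC, 2 of 4 members were past 1.5-fold, both lower in Dach1OE, beside 7.97% of all genes. Sfrp4 was at 34.4 and 13.7 CPM (34 and 19 UMIs), a log2 ratio of −1.34 (interval −2.23 to −0.49), and Sfrp1 was at 36.4 and 21.0 CPM (−0.81, interval −1.57 to −0.07). In the SC cluster of the finer clustering Sfrp1 was within the threshold, at 24.8 and 20.8 CPM (−0.28), and Sfrp4 past it, at 37.2 and 14.1 CPM (−1.42). Wif1 was within the threshold in the class, at 641 and 478 CPM (−0.44). In cells with Xist both ratios had the other sign, with Sfrp4 at 27.8 and 31.4 CPM (0.17) and Sfrp1 at 25.2 and 34.9 CPM (0.46). In cells with Y-linked UMIs Sfrp4 was at 46.2 and 13.05 CPM (−1.85) and Sfrp1 at 46.2 and 22.4 CPM (−1.08). Each of these levels rests on 7 to 12 UMIs. The counting intervals of the libraries overlapped in every case, but overlap does not show that a ratio lies within counting error. Wif1 had log2 ratios of −0.057 with Xist and −0.89 with Y-linked UMIs. The dpMSC and mpMSC marker lists summed lower in Dach1OE, to 5622 and 4271 CPM and to 602 and 490 CPM, with 2 of 7 and 2 of 6 measured markers lower. Megakaryocyte markers summed higher, to 57.7 and 201 CPM with 2 of 2 measured markers higher, and so did chondrocyte markers, to 790 and 1161 CPM with 2 of 8 higher. The single fibroblast marker measured was lower, with the list at 129 and 72.4 CPM. Of 4 measured mural markers 2 were lower, although the mural list summed higher, to 1324 and 1580 CPM. The part of these lists was not tested.

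In pBMSC, 1 of 4 members was past 1.5-fold, beside 10% of all genes. Notum was at 33.9 CPM in Control and 64.8 CPM in Dach1OE, a log2 ratio of 0.97 (interval 0.16 to 1.81) on 21 and 38 UMIs. It was higher in cells with Xist (29.8 and 68.4 CPM, 52 and 27 cells) and in cells with Y-linked UMIs (35.7 and 96.6 CPM, 24 and 25 cells). Taken as the mean of per-cell CPM the log2 ratio was 0.56, within the threshold. OB markers were past 1.5-fold upward in 3 of 6 cases in these cells, with the list summing to 6294 and 6596 CPM. Megakaryocyte markers were lower in 2 of 2 cases (156 and 88.6 CPM in sum), and so were 1 of 2 OCY markers and 1 of 6 proliferation markers, whose list summed to 3197 and 2566 CPM. The part of these lists was not tested.

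In chondrocytes, 3 of 9 members were past 1.5-fold, beside 5.8% of all genes, and 2 of these had fewer than 2 CPM in both libraries. Notum was at 29.1 CPM in Control (1074 UMIs) and 18.8 CPM in Dach1OE (928 UMIs), a log2 ratio of −0.62 (interval −0.75 to −0.49). It was lower in cells with Xist (31.0 and 22.7 CPM) and in cells with Y-linked UMIs (18.7 and 12.8 CPM), with log2 ratios of −0.46 and −0.54 that were each within 1.5-fold. Of 6 chondrocyte clusters with enough Notum UMIs, 5 were lower in Dach1OE. The cluster with Col3a1, Scara3 and Sfrp5, where Notum was highest, was at 163 CPM (Control) and 97.1 CPM (Dach1OE). The cluster led by the cell cycle genes Ccna2 and Top2a was at 40.7 and 20.4 CPM, and the cluster with Gdf10 and Ptch1 at 26.8 and 14.3 CPM. Sfrp2 was at 0.866 and 1.82 CPM (1.08), with the other sign in cells with Y-linked UMIs, and Dkk2 was at 0.839 and 0.446 CPM (−0.90), with a ratio of −1.72 in those cells and 10 UMIs in each library in cells with Xist (0.549 and 0.554 CPM). In haematopoietic cells Sfrp2 was at 0.738 and 0.383 CPM and Dkk2 at 0.533 and 0.696 CPM. As class levels, Sfrp2 in Control and Dkk2 in Dach1OE chondrocytes therefore did not stand clear of background. The cluster with Col3a1, Scara3 and Sfrp5 held 25 of the 32 Control and 75 of the 90 Dach1OE Sfrp2 UMIs of chondrocytes. There Sfrp2 was at 10.5 and 19.7 CPM, a log2 ratio of 0.89. Sfrp1 was just inside the threshold, at 9.50 and 14.0 CPM (0.56), and just past it in cells with Xist (0.61), and Frzb had a log2 ratio of −0.12. The dpMSC marker list in chondrocytes summed to 65.7 and 37.3 CPM, with 5 of 8 measured markers lower. Of the OB markers 3 of 7 were lower, although the OB list summed higher, to 1179 and 1274 CPM. Higher were 2 of 5 mural and 2 of 6 OCY markers. The part of these lists was not tested.

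In fibroblasts none of the 8 measured members was past 1.5-fold, beside 7.84% of all genes. By their own markers 758 cells of the class were gated as fibroblasts and 701 were ungated. Sfrp4 was nearest, at 189 CPM in Control and 284 CPM in Dach1OE, a log2 ratio of 0.58 (interval 0.45 to 0.71), while the cluster with Prg4, which was a larger share of the Dach1OE fibroblasts, was at 276 and 361 CPM. Dkk3 was at 196 and 261 CPM (0.41), and Wif1 and Dkk2 were at −0.47 and −0.43. Wif1 was past 1.5-fold downward in both sets of sex-assigned cells, at 94.1 and 50.7 CPM with Xist and at 124 and 47.6 CPM with Y-linked UMIs. So was Sfrp2, at 20.3 and 10.1 CPM with Xist and at 56.6 and 23.8 CPM with Y-linked UMIs, although its ratio over all fibroblasts was −0.23. Dkk2 (−1.58) and Sfrp4 (0.91) were past it with Xist alone, and Dkk3 (1.04) with Y-linked UMIs alone. In fibroblasts, 4 of 8 measured dpMSC markers and 4 of 4 erythroid markers were lower in Dach1OE, as were 3 of 7 OB markers (1147 and 741 CPM in sum) and 2 of 8 markers of fibroblasts themselves. Of the lists that moved the other way, 2 of 3 megakaryocyte markers (129 and 238 CPM), 3 of 5 SC markers and 2 of 6 OCY markers were higher. The part of these lists was not tested.

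Dkk2 was lower in Dach1OE in the Sema3g-led EC cluster, which was not among the classes compared above. It was at 183 CPM in Control (interval 162 to 206) and 44.5 CPM in Dach1OE (38.8 to 50.8), a log2 ratio of −2.07 (interval −2.33 to −1.81), or 4.20-fold lower. Of all genes measured in this cluster, 17.9% were past 1.5-fold. Cells with a Dkk2 UMI made up 33.8% of the Control cluster (148 of 438 cells) and 8.39% of the Dach1OE cluster (116 of 1382 cells), at medians of 2861.5 and 2914.5 UMIs. In cells with Xist Dkk2 was at 193 and 44.7 CPM, and in cells with Y-linked UMIs at 193 and 39.9 CPM, so the values were alike in both sets of cells. Of the genes that lead the cluster, Sema3g was at 1030 and 1021 CPM, Gja4 at 957 and 1593 CPM and Gja5 at 455 and 828 CPM. Dach1 was at 6.83 and 225 CPM in the same cells. Outside this cluster, ECs held 66 and 67 Dkk2 UMIs. The cluster was found without integration of the libraries and held more cells in Dach1OE, so that a change of level within a cell and a change in which cells make up the cluster cannot be told apart.

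Over all BMSCs, Sfrp1 and Sfrp4 were lower in Dach1OE, and Sost, Dkk2 and Frzb were higher. Of the 10 members, 5 were past 1.5-fold, beside 10.9% of all genes. The median gene, to which the ratios are relative, was itself at a log2 ratio of −0.20. Sfrp1 was at 154 CPM in Control and 77.6 CPM in Dach1OE, a log2 ratio of −0.78 (interval −0.86 to −0.70), and Sfrp4 was at 76.6 and 40.2 CPM (−0.73). Sost was at 1.84 and 5.54 CPM (1.79), Dkk2 at 1.96 and 3.30 CPM (0.95) and Frzb at 15.1 and 23.3 CPM (0.83). Dkk1, at 44.3 and 57.0 CPM (0.57), and Notum, at 18.9 and 23.5 CPM (0.51), were just within the threshold, and Dkk3 (−0.40), Wif1 (−0.13) and Sfrp2 (−0.12) were further inside it.

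The mix of subtypes moved with these values. The dpMSCs made up 43.1% of Control and 20.4% of Dach1OE BMSCs, osteoblasts 26.5% and 44.9%, and osteocytes 3.33% and 5.49%, while mpMSCs were 21.0% and 19.9%. With the subtype shares set equal in both libraries, Sfrp1 had a log2 ratio of 0.20 and Sfrp4 of 0.14, so that both turned direction. Dkk1 went to −0.03, Notum to 0.05, Frzb to 0.30 and Dkk3 from −0.40 to 0.24. Sost went from 1.79 to 1.17 and Dkk2 from 0.95 to 0.76, and Sfrp2 went from −0.12 to 0.86. Wif1 was at −0.13 as measured and −0.09 at equal shares. The Sfrp4 value over all BMSCs also differed between the sets of cells, at 59.0 and 53.7 CPM in cells with Xist and 93.5 and 31.9 CPM in cells with Y-linked UMIs.

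**Figure D4:**
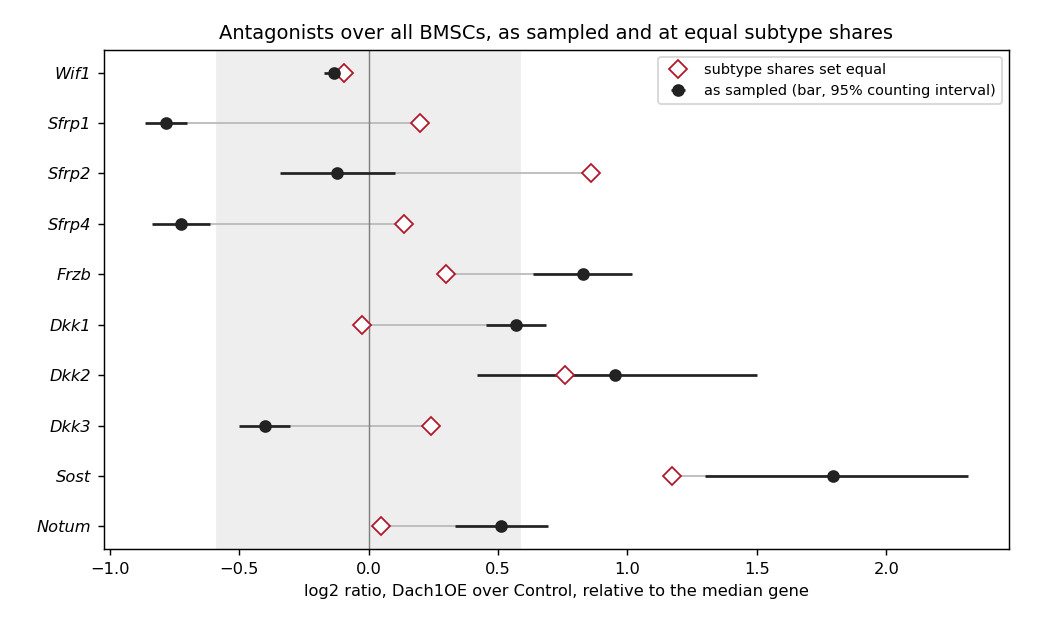
Log2 ratio (Dach1OE over Control, relative to the median gene) of each member over all BMSCs as sampled (black circles, bars for the 95% counting interval) and with the subtype shares set equal in both libraries (open diamonds). The grey band marks 1.5-fold. Sfrp1 moves from −0.78 to 0.20 and Sfrp4 from −0.73 to 0.14, while Sost stays outside the band, at 1.79 and 1.17.

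Setting the cells of either sex side by side shows how far each value was shared by the sex-assigned cells of both mice. Of 26466 kept Control cells, 9993 had Xist only and 5887 had Y-linked UMIs only. Of 29317 kept Dach1OE cells, 9388 and 7402 did. The remaining cells were in neither set. Dkk1 in mpMSCs, Notum in pBMSC, Notum in chondrocytes and Dkk2 in the Sema3g-led ECs had 1 direction in both sets of cells. Sfrp2 in dpMSCs, Sfrp4 in mpMSCs and Sost in osteocytes had 1 direction but sizes that differed widely, and so did Sfrp4 in osteoblasts (−0.21 with Xist and −1.09 with Y-linked UMIs). Among values past 1.5-fold over all cells, the sign differed between the sets for Sfrp2 in chondrocytes and, on 7 to 12 UMIs per level, for Sfrp1 and Sfrp4 in SC. It also differed for Sfrp4 over all BMSCs (0.04 with Xist and −1.38 with Y-linked UMIs). Several values within 1.5-fold over all cells differed in sign too, among them Sfrp4 in dpMSCs and Wif1 in dpMSCs (−0.21 and 0.36) and mpMSCs (−0.30 and 0.18). Dkk2 in chondrocytes differed in the cells with Y-linked UMIs and had equal UMIs in those with Xist.

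**Figure D5:**
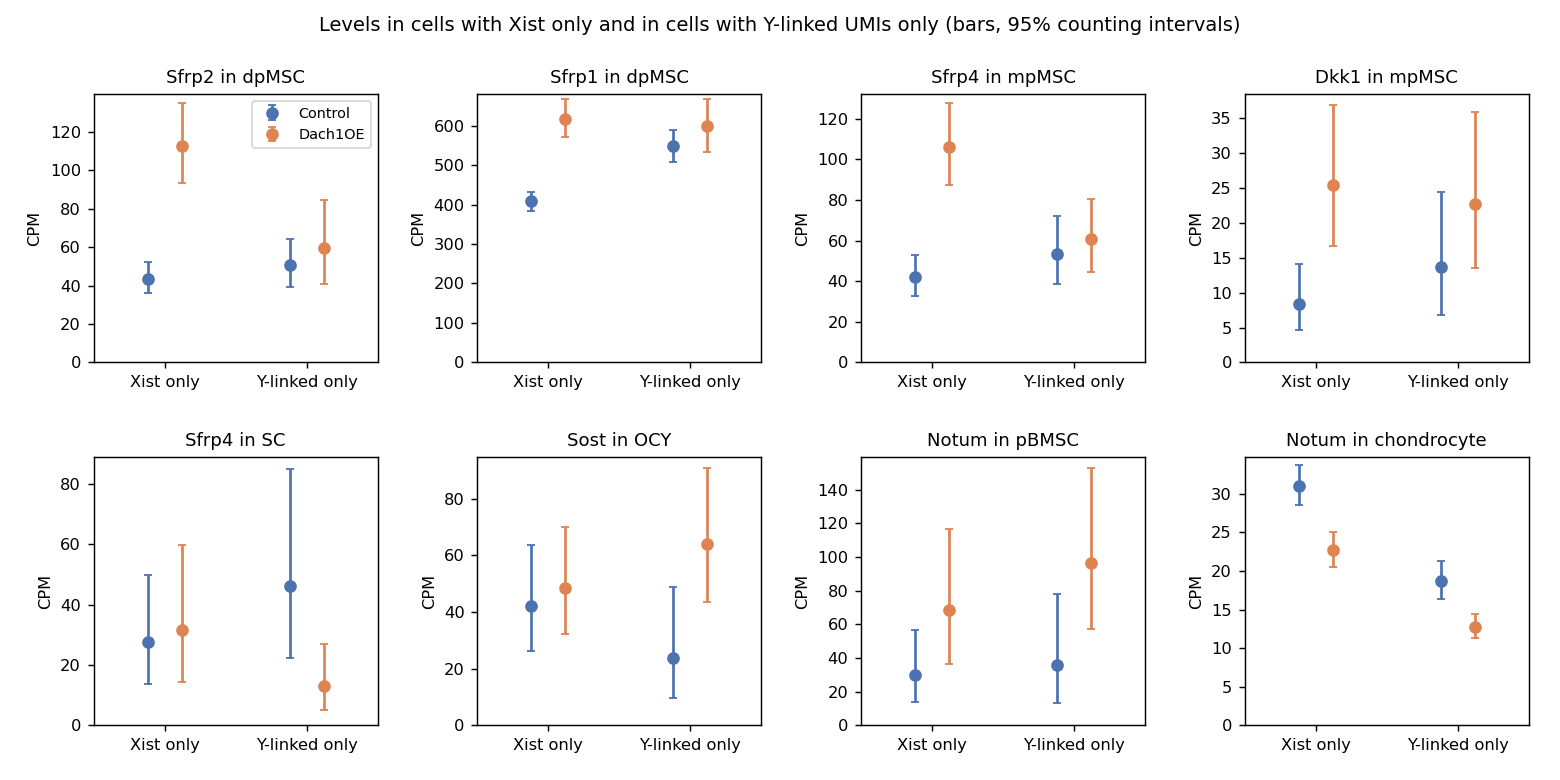
Level (CPM) of 8 member and class pairs in Control (blue) and Dach1OE (orange), separately for cells with Xist only and cells with Y-linked UMIs only, with bars for the 95% counting interval. Each set of cells stands for 1 mouse per library. Sfrp2 in dpMSCs is at 43.7 and 113 CPM in the cells with Xist and at 50.7 and 59.8 CPM in the others, and Notum in chondrocytes is lower in Dach1OE in both.

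The other genes of the pathway were followed on a list of ligands, receptors, R-spondins, targets and further modulators, of which 65 had counts. Their counts past 1.5-fold are read beside the shares of all genes past it, which were 5.3% in dpMSCs, 4.81% in mpMSCs, 4.36% in osteoblasts, 8.51% in osteocytes, 7.97% in SC, 10% in pBMSC, 5.8% in chondrocytes and 7.84% in fibroblasts. In dpMSCs 0 of 32 measured genes were higher and 1 was lower, in mpMSCs 1 of 35 was higher and 1 lower, and in osteoblasts 1 of 34 was higher and 0 were lower. In osteocytes 2 of 17 were lower. In SC and pBMSC 1 gene was higher and 1 lower, of 27 and 12. In chondrocytes 2 of 43 were higher, which were the receptor Fzd6 (1.57 and 3.91 CPM, 1.33) and Lgr6, a receptor for R-spondins (13.4 and 21.5 CPM, 0.69). In fibroblasts 3 of 36 were higher and 2 lower. Among these were the R-spondin receptor Lgr4 (0.85), the pathway inhibitor Nkd2 (−0.65) and the target gene Wisp1 (143 and 80.7 CPM, −0.83).

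Over all BMSCs, 5 of 42 pathway genes were higher and 8 lower, beside 10.9% of all genes (579 higher and 897 lower). Among those with at least 200 UMIs, the receptor Fzd1 (71.5 and 27.6 CPM, −1.17) and the R-spondins Rspo2 (28.2 and 11.7 CPM, −1.06) and Rspo3 (108 and 53.9 CPM, −0.80), which amplify Wnt signals, were the lowest. The transcription factor genes Tcf7 (35.6 and 48.9 CPM, 0.66) and Lef1 (6.21 and 8.35 CPM, 0.63) were the highest. Both passed 1.5-fold relative to a median gene at a log2 ratio of −0.20, and not by their CPM alone. The pathway genes were not computed at equal subtype shares, and the part of the subtype mix in these values was not tested. In dpMSCs alone none of the R-spondins and their receptors was past 1.5-fold, with 4 of 9 measured and a median log2 ratio of 0.04.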

How the data were processed

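The authors deposited, for each of 2 BD Rhapsody libraries, counts per cell and gene: reads, raw UMIs and UMIs after correction of sequencing errors in the identifiers (RSEC-adjusted), which were used here. Per the file headers the counts were made with the BD Rhapsody WTA Analysis Pipeline 1.11 on GRCm38 with GENCODE annotation, with intronic reads counted. Femur and tibia without epiphysis were digested with collagenase, crushed and depleted of haematopoietic cells.

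The study's limits on cells were used: 500 to 6000 genes, and less than 25% of UMIs mitochondrial. Clusters (scanpy 1.11.5, 2000 variable genes without the members, pathway, cell cycle, mitochondrial and sex-linked genes, 30 components, Leiden resolution 1.0, and 0.5 within BMSCs and chondrocytes, no integration) were named where at least 3 markers of a list stood 1.5 times or more above the remaining cells and had a UMI in 25% or more of the cluster. Subclusters of BMSCs or chondrocytes whose markers named another class, clusters mostly of Scrublet-marked doublets and unnamed clusters were left out, and finer BMSC clusters were taken at resolution 1.0. Scrublet marked 6.53% and 6.60% of kept cells.

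UMIs were summed per class and library, and levels have exact Poisson intervals, shares exact binomial intervals and ratios exact conditional intervals (scipy 1.17.1), which cover counting error only. Log2 ratios are relative to the median of genes with at least 50 UMIs over both libraries in a class. With 1 library per group no p-value was computed. Mural, endothelial and haematopoietic classes were given as levels, apart from 1 endothelial cluster chosen after its values were seen. Cells with Xist and no Y-linked UMI, and the reverse, were compared separately. The steps were tested on simulated data. TMM factors (edgeR 4.0.16) and the alternatives of the closing section were tried, and the one without cells of shared index was added after the data were seen.

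All 10 members are named. For the genes most like a member, the 3 with the highest r were taken, and of the other pathway genes at most 3 per direction and class with at least 200 UMIs. Finer clusters were picked after their values were seen. The members and lists were chosen with earlier results of these data known. Gene coordinates are those of GENCODE on GRCm38 and upstream sequences those of RefSeq on GRCm38.p6.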

Additional observations from a re-analysis of the deposited data

Results flagged for a closer look

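Some members had ratios of opposite direction in different classes, each past 1.5-fold. The log2 ratio of Notum (Dach1OE over Control) was 0.97 in pBMSC and −0.62 in chondrocytes. That of Sfrp4 was 0.70 in mpMSCs, −0.81 in osteoblasts and −1.34 in SC. The osteoblast value rests on 4.56 and 2.60 CPM, where Sfrp4 in haematopoietic cells, which should lack it, was at 2.46 and 3.24 CPM. With 1 library per group the difference between classes was not tested, and in cells with Xist the Sfrp4 ratio in SC was 0.17.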

How the results depend on the processing

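All values rest on 1 library per group, so the spread between mice or preparations is unknown, and sparse members (Sost, Dkk2, Sfrp2 and Notum in pBMSC) are limited by depth. TMM scaling and totals without the 20 most abundant genes cancel in a ratio centred on the median gene and are left out of the counts that follow. Of 832 ratios of a member under the other alternatives, 712 stayed within their counting interval, 114 moved outside it and 6 that were past 1.5-fold changed sign. Of 125 counts of members past 1.5-fold, 90 stayed and 35 moved. A count was taken to stay when it equalled the main count or lay within 1.5-fold of it. Which members made up the count was not compared. Ratios within 1.5-fold that changed sign, such as Dkk3 over all BMSCs at equal subtype shares, are counted by their interval alone. The 6 were, in cells with Xist, Sfrp1 and Sfrp4 in SC (0.46 and 0.17) and Sfrp4 over all BMSCs (0.039), in cells with Y-linked UMIs Sfrp2 in chondrocytes (−1.91), and at equal subtype shares Sfrp1 and Sfrp4 over all BMSCs (0.20 and 0.14). The median ratio of the members moved in dpMSCs to 0.22 with at least 20 UMIs per gene, 0.42 with at least 1 UMI and 0.59 in cells with Xist. It moved to −0.090 in osteocytes with Y-linked UMIs, to −0.057 in SC with Xist and to −0.72 in fibroblasts with Xist. Over all BMSCs it was 0.43 for the mean of per-cell CPM, −0.036 in cells with at least 4000 UMIs and −0.29 in cells with Y-linked UMIs. The count of members past 1.5-fold with at least 1 UMI per gene was 3 in dpMSCs, 3 in osteoblasts, 4 in osteocytes, 4 in SC, 5 in pBMSC, 5 in chondrocytes and 3 in fibroblasts, beside 39.4%, 34.5%, 47.8%, 39.7%, 47.4%, 32.9% and 38.4% of all genes, and with at least 20 UMIs it was 2 in osteocytes, 2 in pBMSC and 1 in fibroblasts, beside 17.9%, 20.1% and 12.002%. In cells with Xist, where fewer members reached 50 UMIs, the count was 3 in dpMSCs, 4 in fibroblasts, 2 over all BMSCs and 0 in osteoblasts, osteocytes, SC and pBMSC. The shares of all genes there were 8.86%, 9.08%, 9.36%, 5.99%, 9.52%, 9.91% and 15.8%, in the same order. In cells with Y-linked UMIs the count was 3 in fibroblasts and 0 in dpMSCs, mpMSCs, osteocytes, pBMSC and chondrocytes, beside 15.8%, 10.7%, 7.90%, 13.1%, 15.7% and 6.33% of all genes. With each cell gated by its own markers the count was 0 in SC, 2 in pBMSC and 4 in fibroblasts, beside 8.63%, 11.6% and 11.5% of all genes. The highest class then became osteoblasts for Notum and, in Dach1OE, fibroblasts for Dkk3. Ratios of a member's highest class to the next were computed under this gate and the other resolutions. Of these 57 ratios, 37 stayed within their counting interval and 20 moved outside it. The count of members past 1.5-fold was 4 in mpMSCs (beside 5.16% of all genes) at a resolution of 0.25 within BMSCs, which gave no SC class, and 1 in SC (8.68%) at a resolution of 1.0. It was 1 in SC (8.34%) and 1 in fibroblasts (7.94%) under 10% mitochondrial UMIs. With at least 4000 UMIs per cell it was 1 in SC (9.72%) and 2 in fibroblasts (8.07%). It was 0 in pBMSC (12.4%) for per-cell means, and 1 in fibroblasts without Scrublet-marked cells (7.96%) or without cells of shared index (7.94%). Over all BMSCs the ratios with per-cell means were Wif1 0.049, Dkk1 0.82, Dkk3 −0.29, Notum 0.77, Sfrp1 −0.60 and Sfrp4 −0.52. In cells with at least 4000 UMIs they were Wif1 −0.24, Dkk1 0.21, Dkk2 0.33, Notum 0.17, Sfrp1 −0.89, Sfrp2 −0.43 and Frzb 0.60. In cells with Xist they were Wif1 −0.23, Dkk1 0.91, Dkk3 −0.19, Sost 0.71, Sfrp1 −0.28, Sfrp2 0.15 and Frzb 0.39, and in cells with Y-linked UMIs Wif1 −0.013, Dkk3 −0.57, Sfrp1 −1.18, Sfrp2 −0.66, Sfrp4 −1.38 and Frzb 1.31. The per-cell gate gave Wif1 −0.28 and Dkk1 0.44, the limit of 10% mitochondrial UMIs gave Wif1 −0.0045, and equal subtype shares gave Dkk1 −0.026, Dkk3 0.24, Sost 1.17, Notum 0.047, Sfrp2 0.86 and Frzb 0.30. The cause of these shifts was not tested, except that equal shares remove the mix of subtypes by construction. The cells of 1 sex stand for 1 mouse per library.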

Other observations

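Wif1 was also counted in mural cells, where it was at 31.4 CPM in Control (114 UMIs) and 6.29 CPM in Dach1OE (42 UMIs). In the same cells Sfrp4 was at 6.88 and 0.748 CPM (25 and 5 UMIs), and Dkk3 was at 28.3 and 32.0 CPM. Beside these values, 5 of 8 dpMSC markers were lower in Dach1OE mural cells (1323 and 1099 CPM in sum) and 4 of 9 chondrocyte markers were higher (1424 and 2283 CPM), and their part was not tested. In ECs Wif1 was at 5.42 and 6.70 CPM, and in haematopoietic cells at 9.10 and 9.16 CPM. Sfrp2 had 0 UMIs in Dach1OE SC and 5 in Control SC.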
